A study of Mus musculus with 2 samples.

Results

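The cells described here are the type 2 conventional dendritic cells (cDC2) of mouse adipose tissue, recovered by droplet single-cell RNA sequencing from 1 library of mice on a chow diet and 1 library of mice on a ketogenic diet. They are the cells that the authors' deposited clustering placed in cluster 5 at resolution 0.5 and that held fewer than 3 unique molecular identifiers (UMIs, each counting 1 captured transcript) of Siglech, a surface lectin of plasmacytoid dendritic cells. The rule took 655 of 10017 clustered cells, of which 325 came from the chow library and 330 from the ketogenic library, and it left 47 Siglech-positive cells of the 702 in the cluster outside. Siglech was at 0 UMIs in 649 of the 655 cells, at 1 UMI in 5 and at 2 UMIs in 1, while the cells just outside the limit began with 3 cells at 3 UMIs and reached 17 UMIs.

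The study sequenced CD45+ leukocytes of adult wild-type C57BL/6 mice that were resident in the adipose tissue, with blood leukocytes told apart by a label given intravenously, and the series title names visceral fat. The control group ate chow and the other group ate a ketogenic diet for 1 week, and neither group carried an engineered allele. The labels used here give no sex, no age in weeks and no number of mice behind a library. Each diet is 1 library, so the diets have no replicate, no test of the diet is possible, and every interval given here covers counting error only.

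Conventional dendritic cells take up antigen in tissues, carry it to lymph nodes and present it to T cells on major histocompatibility complex (MHC) molecules. The cDC2 branch is known for presenting antigen to CD4+ T cells, depends in part on the transcription factors IRF4 and KLF4, and carries C-type lectins such as CD209a (a mouse relative of DC-SIGN), CLEC10A and MGL2 (macrophage galactose-type lectins, also called CD301a and CD301b). The cDC1 branch, which depends on IRF8 and BATF3, is known for presenting antigen to CD8+ T cells. In fat, dendritic cells lie among macrophages, T cells and innate lymphoid cells.

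The members held 2122702 UMIs in the chow library and 2596311 in the ketogenic library, with a median of 6502 and 7874 UMIs per cell, a median of 1767 and 2012 detected genes, and a median mitochondrial share of 1.61% and 1.43%. Levels below are CPM, the summed UMIs of a gene divided by all UMIs of the same cells, on the usual CPM scale. Diet differences are log2 ratios of ketogenic to chow CPM, with 0.5 UMIs added to each count. The 2 libraries shared 41 barcode sequences; 3 member cells of each library carried one, and none of these barcodes was a member in both.

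The 5 marker genes of the label were chosen with earlier results of these data known. Their levels describe the members and do not test the label. Cd209a, on chromosome 8 at 3743397 to 3748984 on the minus strand (GRCm38), was at 1241 CPM (95% exact Poisson interval 1194 to 1290) on chow and 1019 CPM (981 to 1059) on the ketogenic diet. Clec10a was at 469 and 564 CPM, and its neighbour on chromosome 11, Mgl2, at 733.5 and 531.5 CPM. Cd209d, another gene of the CD209 cluster on chromosome 8, was at 330 and 171 CPM, and Tnip3, which encodes a protein that binds the NF-kB regulator A20, was at 633 and 597 CPM. All 5 genes were detected in both libraries, and none of their diet ratios passed 2-fold, the size used throughout for calling a difference; Cd209d came nearest, with a log2 ratio of −0.95. When every member with markers of other lymphoid cells or cDC1 was left out, which kept 37 chow and 19 ketogenic cells, Cd209a was at −1.56 and Mgl2 at −4.20. With so few cells, the sizes of these 2 values are uncertain.

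After each cell was thinned to the same number of UMIs, 79.3% of the chow members and 76.1% of the ketogenic members held UMIs of at least 2 of the 5 genes. In the cDC1-like cells (cluster 6) the same share was 1.96% and 0.563%, and in the cells with natural killer (NK) genes (cluster 1), which should lack these lectins, it was 0.186% and 0.0942%. Among the cells that led with macrophage and monocyte genes, it was 37.9% and 25.5% in cluster 8 and 12.96% and 6.21% in cluster 3. The clusters were built on all genes, so these shares describe the members and do not test them. Cd209a was not only a gene of these cells, since members held 63.0% of its UMIs among clustered cells on chow and 79.6% on the ketogenic diet. Tnip3 was also high in cluster 8, at 511 and 405 CPM. The Siglech-positive cells of cluster 5 held more Cd209d than the members did, at 664 and 1234 CPM, and no Tnip3 UMI. The markers also did not mark each member: 76 of 325 chow cells (23.4%) and 46 of 330 ketogenic cells (13.9%) held a UMI of all 5 genes, and Mgl2 was at 0 in 130 and 177 members.

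**Figure D1:**
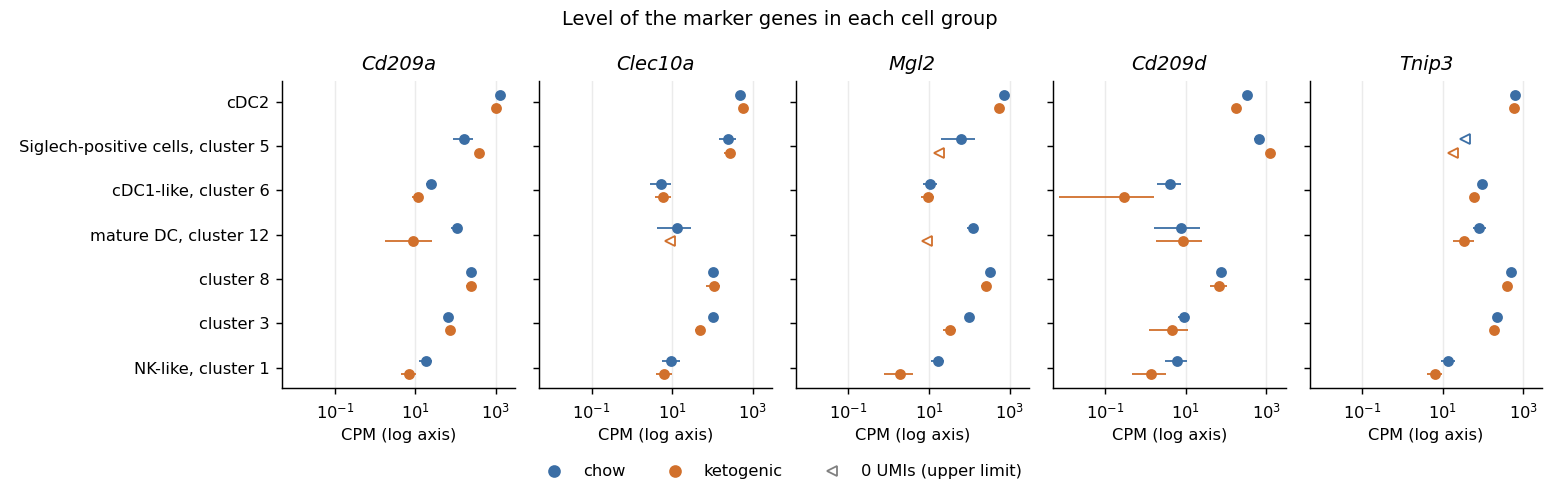
Levels of the 5 marker genes in the cDC2 cells, 3 other dendritic cell groups and 3 other clusters, in CPM on a log axis, with 1 point per diet (1 library each) bars for 95% exact Poisson intervals and open triangles for the upper limit where no UMI was found. The cDC2 points lie between 171 and 1241 CPM, while the NK-like cells lie at or under 17.8 CPM.

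The cDC2 cells made up 7.29% of clustered cells on chow (95% Clopper-Pearson interval 6.54% to 8.09%) and 5.94% (5.33% to 6.59%) on the ketogenic diet, a ratio of 0.814 (0.697 to 0.952). This share moves with the other clusters: cluster 3 went from 859 to 145 cells and cluster 8 from 362 to 47, while the T cell-gene cluster 2 went from 236 to 821. Outside clusters 3 and 8 the ratio was 0.612 (10.0% and 6.15%). Counted instead as any clustered cell with at least 2 of the 5 markers after thinning, which takes in macrophage-gene cells, the ratio was 0.399 (557 of 3971 and 311 of 5559 cells); thinning left out 487 chow cells and 0 ketogenic cells as too shallow. Among the dendritic cell clusters 5, 6 and 12, members were 45.7% (42.0% to 49.5%) on chow and 43.3% (39.8% to 46.9%) on the ketogenic diet, a ratio of 0.947 with an interval of 0.810 to 1.11. With 1 library per diet, a difference in cell yield and a difference in the tissue cannot be told apart.

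Of the 4044 genes with at least 100 UMIs in the members of both libraries together, 46 (1.14%) were at least 2-fold higher on the ketogenic diet and 38 (0.940%) were at least 2-fold lower. Of the 7379 genes with at least 30 UMIs, the floor used for the gene lists below, 216 (2.93%) were higher and 143 (1.94%) were lower. Transcripts of T cells moved with the diet inside the members. The 5 T cell markers were Cd3e, Cd3d, Cd3g, Trac and Cd4. In all, 18 of 325 chow cells (5.54%) and 60 of 330 ketogenic cells (18.2%) held 2 or more of their UMIs. Their summed level was 65.0 and 262 CPM. The sum ranged from 0 to 6 UMIs per chow cell and from 0 to 33 per ketogenic cell, with a median of 0 in both and no marker absent from either library. Members with these markers were deeper, with a median of 7850 against 6421 UMIs on chow and 10528 against 7513 on the ketogenic diet. Without them, 3519 genes kept 100 UMIs, of which 12 (0.341%) were higher and 32 (0.909%) lower, and 6789 genes kept 30 UMIs, of which 119 (1.75%) were higher and 144 (2.12%) lower. The number of higher genes thus went from 46 to 12 without these cells and the number of lower genes from 38 to 32, and calls of the lists described below that differ without them are named there. For genes near the floor of 30 UMIs, leaving out these cells can end a call because too few UMIs remain.

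Summed markers of other cell types were compared in the same way. The 3 neutrophil markers were at 16.0 and 3.47 CPM (34 and 9 UMIs), and the 4 markers of red cells, which a CD45 gate should not hold, were at 2.83 and 7.70 CPM (6 and 20 UMIs). The 7 cDC1 markers were at 114 and 129 CPM in the members (1669 and 2011 CPM in the cDC1-like cells), with Itgae at 0 on chow. The 8 macrophage markers were at 187 and 118 CPM, with Mertk at 0 on the ketogenic diet, and the 4 NK cell markers at 93.3 and 76.3 CPM. The 5 B cell markers were at 414 and 465 CPM, against 87418 and 62474 CPM in cluster 9. This low level was widespread, with 2 or more UMIs in 68.6% and 78.8% of members. All 3 mast cell and basophil markers were at 0 in both libraries. The 6 monocyte markers were at 938 and 856 CPM, with 2 or more UMIs in 88.6% and 83.0% of members, and Vcan at 0 on the ketogenic diet. The 7 plasmacytoid markers were at 400.0 and 397 CPM, and the 4 markers of group 2 innate lymphoid cells (ILC2) at 153 and 139 CPM. The 6 mature dendritic cell markers were at 108 and 140 CPM, with 2 or more UMIs in 11.1% and 20.9% of members. Removing members with markers of other lymphoid cells or cDC1 left 37 chow and 19 ketogenic members. In them only 365 genes held 100 UMIs, against 4044 in all members. Of these 365 genes, 0 were 2-fold higher and 13 were lower.

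Retnla, Ccl17 and Tppp3 were among the genes that fell. Retnla (chromosome 16, 48842551 to 48844461), which encodes RELM-alpha, a secreted protein known from type 2 immunity, had 2082 UMIs and 981 CPM (95% interval 939 to 1024) on chow against 578 UMIs and 223 CPM (205 to 241) on the ketogenic diet, so that it fell 4.41-fold (log2 ratio −2.14). Retnla was found in 301 of 325 chow members and 104 of 330 ketogenic members, and 28 and 6 cells held 10 or more of its UMIs. A low level of Retnla was present in cells that should lack it: the NK-like cells were at 562 and 54.0 CPM, and after thinning 63.8% and 9.91% of them held a UMI, against 61.3% and 11.6% of members. The share of members with Retnla was therefore no higher than this background on chow, while the member level was above the NK-like level in both libraries. The NK-like cells were not the highest background, since clusters 4 and 7 were at 1192 and 1403 CPM on chow, above the members, and at 45.4 and 221 CPM on the ketogenic diet. With 10% of the free RNA level subtracted from the members, the log2 ratio was −1.63. Cluster 8, which held the highest Retnla level of any cluster in both libraries, was at 21079 CPM on chow and 28199 CPM on the ketogenic diet but had fewer cells there, as given above. The part of free RNA in the lower member level was not tested.

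Ccl17 (chromosome 8), which encodes a chemokine that draws CCR4-bearing T cells, had 1289 UMIs and 607 CPM on chow and 308 UMIs and 119 CPM on the ketogenic diet, and it fell 5.12-fold (log2 ratio −2.35). It came from few cells, since 65 chow members and 23 ketogenic members held any UMI, 14 and 5 held 10 or more, and the highest cell alone held 334 and 88 UMIs. The NK-like cells were at 11.1 and 7.79 CPM, far below the members in both libraries. The same gene was at 4231 and 821 CPM in the mature dendritic cells (cluster 12) and at 93.5 and 76.7 CPM in the cDC1-like cells. Ccl22, whose product binds the same receptor, was at 53.7 and 52.4 CPM in the members.

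Tppp3, a tubulin-binding protein gene, had 829 and 298 UMIs, at 390.5 and 115 CPM, and fell 3.40-fold. It was at 95.1 and 17.2 CPM in the cDC1-like cells and at 47.8 and 3.62 CPM in the NK-like cells, so the lower ketogenic level was seen in each of these groups.

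Of 14 chemokine genes measured, Ccl17 included, 4 fell (Ccl7, Ccl17, Ccl24 and Cxcl2) and 1 rose (Ccl3), with a median log2 ratio of −0.25 against 0.03 over all 7379 genes. Ccl7 went from 110 UMIs to 2 (ratio 0.0149, interval 0.00178 to 0.0550), with 47 of the chow UMIs in 1 cell, and it was at 19.5 and 0.835 CPM in the NK-like cells and 27.3 and 1.38 CPM in cluster 0. Ccl24 went from 84 UMIs to 6, with 44 of the chow UMIs in 1 cell, and it was at 25.6 and 3.06 CPM in the NK-like cells. In the 37 chow and 19 ketogenic members without markers of other lymphoid cells or cDC1, the log2 ratio was −1.68 for Ccl7 and −4.23 for Ccl17, and it was −3.85 for Retnla. Cxcl2, a neutrophil chemoattractant, went from 290 to 135 CPM, but it went from 195 to 40.2 CPM in the cDC1-like cells and from 236 to 27.8 CPM in the NK-like cells. Ccl3 went from 64 to 200 UMIs, of which 58 were in 1 ketogenic cell. Ccl4 (473.5 and 491 CPM), Ccl9 (810 and 712 CPM) and Ccl6 (836 and 559 CPM) did not pass 2-fold. With 10% of the free RNA level subtracted, Ccl7, Ccl17 and Ccl3 remained past 2-fold, and Ccl24 and Cxcl2 were no longer called.

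Of 13 cytokine genes, 1 rose, and it was Ltb (lymphotoxin beta), whose log2 ratio of 1.22 became 0.09 without the members that held T cell markers. Il1b, the gene of the inflammatory cytokine interleukin-1 beta, was at 2519 and 2381 CPM, and none of 12 inflammasome genes passed 2-fold (Nlrp3, the sensor of that pathway, 67.4 and 89.0 CPM). Of 25 cytokine receptor genes 1 rose (Il21r, log2 ratio 1.47, and 0.76 without those members), and of 11 chemokine receptor and migration genes 1 rose (Cxcr3, 1.80, and 0.98 without them). Il7r passed as lower without them (51 and 25 UMIs). None of the 18 NF-kB feedback genes passed 2-fold.

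**Figure D2:**
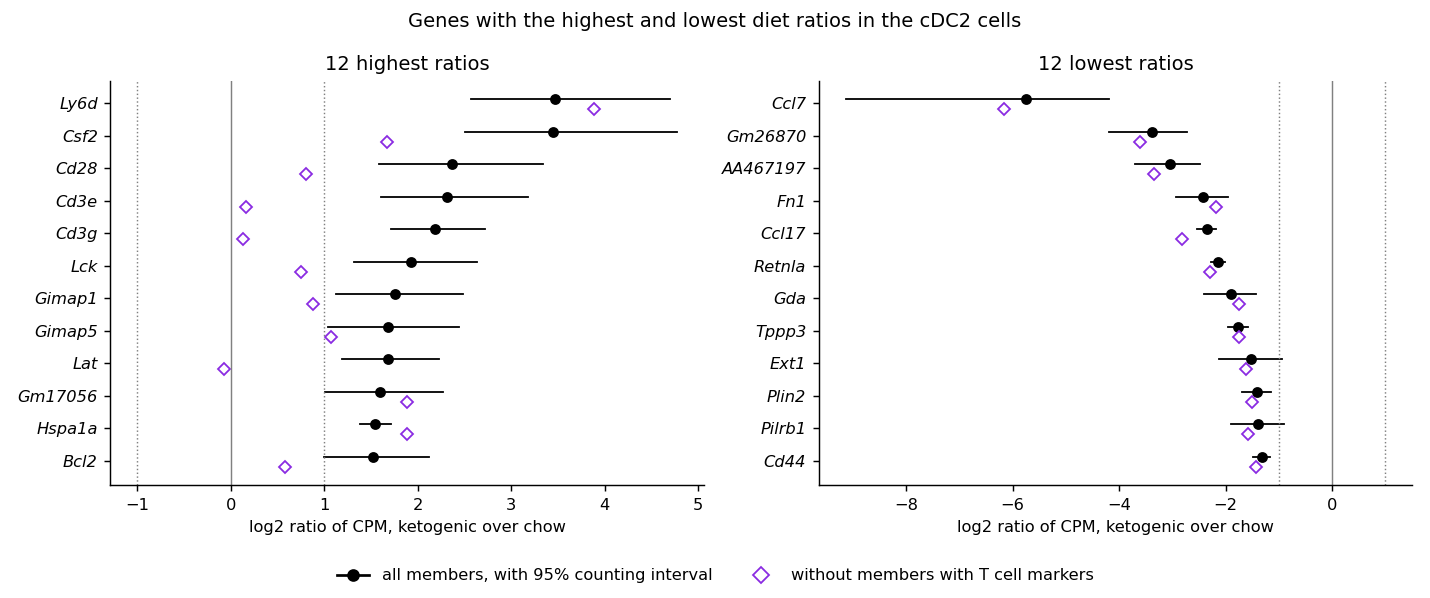
The 12 genes with the highest and the 12 with the lowest ketogenic to chow ratio in the cDC2 cells among genes with at least 100 UMIs, as log2 ratios of CPM with 95% exact counting intervals for the full set and as open diamonds for the set without members holding 2 or more T cell marker UMIs. The lower genes keep their place without those members, whereas Cd28 moves from 2.37 to 0.81 and Lat from 1.68 to −0.077 on the log2 scale. Cd3e and Cd3g also move, but they are among the markers used to remove those members.

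Of the genes reported here, the 12 lowest on the ketogenic diet were Ccl7, Gm26870, AA467197, Fn1, Ccl17, Retnla, Gda, Tppp3, Ext1, Plin2, Pilrb1 and Cd44. All 12 were also among the 12 lowest without the members that held T cell markers. Fn1 (fibronectin) went from 91.4 to 16.9 CPM in members and from 109 to 3.62 CPM in the NK-like cells, so its chow level in members did not exceed that background, and with 10% of the free RNA level subtracted its log2 ratio was −0.59. Gm26870, listed as a long intergenic RNA on chromosome 9, was likewise at 78.2 and 7.32 CPM in members and at 147 and 14.5 CPM in the NK-like cells. AA467197 went from 185 to 27 UMIs, of which 78 were in 1 chow cell. Ext1, which encodes an enzyme that builds heparan sulfate chains, went from 40.0 to 13.9 CPM and was at 2.78 and 1.39 CPM in the NK-like cells. Cd44, the hyaluronan receptor gene, had 933 and 455 UMIs, at 439.5 and 175 CPM in members, 353 and 142 CPM in the cDC1-like cells and 240 and 118 CPM in the NK-like cells. The levels of Ext1, Plin2 and Cd44 in members thus lay above those of the NK-like cells in both libraries, unlike the chow levels of Fn1 and Gm26870. Other clusters were nearer to the members or above them: Plin2 was at 169 and 93.8 CPM in cluster 0, 273 and 152 CPM in cluster 7 and 205 and 135 CPM in cluster 11, lower on the ketogenic diet in each, and Cd44 was at 367 and 186 CPM in cluster 7.

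The 12 highest genes were Ly6d, Csf2, Cd28, Cd3e, Cd3g, Lck, Gimap1, Gimap5, Lat, Gm17056, Hspa1a and Bcl2. Cd28, Cd3e, Cd3g, Lck and Lat encode the T cell receptor complex or its signalling partners, and without the members that held T cell markers their log2 ratios were 0.81, 0.16, 0.14, 0.75 and −0.077. For Cd3e and Cd3g this change was fixed by the removal, since their own UMIs chose the cells left out. Cd28, Lck and Lat were not among the markers used. The cDC1-like cells held more of the same transcripts on the ketogenic diet as well, with Cd3e at 5.74 and 22.1 CPM and Cd28 at 2.05 and 16.7 CPM. Csf2, which encodes the growth factor GM-CSF, had 8 and 113 UMIs, with 58 in 1 ketogenic cell, and its log2 ratio went from 3.45 to 1.67 without the members holding T cell markers. Ly6d had 9 and 128 UMIs with 109 of them in 1 cell, and its log2 ratio without the highest cell was 0.91. Gimap1, Gimap5 and Bcl2, genes of lymphocyte survival, were at 0.88, 1.08 and 0.57 without those members. Hspa1a and Gm17056, a transcript annotated as antisense, were both at 1.88 without them, and no cell held more than 6 UMIs of Gm17056. Of the 12 names, 3 remained among the 12 highest once those members were left out.

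Hspa1a (chromosome 17), which encodes the stress-induced chaperone HSP70, rose from 388 UMIs and 183 CPM to 1387 UMIs and 534 CPM, a ratio of 2.92 (interval 2.61 to 3.28). In the 37 chow and 19 ketogenic members without markers of other lymphoid cells or cDC1 its log2 ratio was 0.52, under 2-fold. Among all members it was found in 34.2% of chow members and 60.0% of ketogenic members, and 9 and 42 cells held 10 or more UMIs. Other cell groups held more of it on the ketogenic diet as well, with Hspa1a at 70.5 and 221 CPM in the cDC1-like cells, 9.46 and 55.1 CPM in the NK-like cells, 68.3 and 187 CPM in cluster 3 and 102 and 337 CPM in cluster 8. It was the 1 gene of 22 immediate early and stress genes that passed 2-fold, and Egr1 stood at a log2 ratio of −0.88. Hspa1a has a near-identical neighbour, Hspa1b, and reads may have been divided between them.

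The lists tied to cDC2 identity gave both near-background and larger counts of calls, against 2.93% higher and 1.94% lower over all genes. Of 12 dendritic cell lineage genes none passed 2-fold: Flt3, the receptor for the growth factor that sustains dendritic cells, was at 92.8 and 98.6 CPM, and Zbtb46, a transcription factor of conventional dendritic cells, at 21.2 and 20.4 CPM. Batf3 was at 149 and 75.5 CPM (log2 ratio −0.98). Of 21 transcription factor genes of cDC2, 1 fell: Irf4 went from 141 UMIs and 66.4 CPM (interval 55.9 to 78.3) to 76 UMIs and 29.3 CPM (23.1 to 36.6), a log2 ratio of −1.18, and it was at 0 in 230 chow and 272 ketogenic members. Irf4 was at 6.15 and 2.87 CPM in the cDC1-like cells, 5.01 and 0.278 CPM in the NK-like cells and 79.3 and 27.8 CPM in cluster 8. Nr4a3, an immediate early factor, was at a log2 ratio of −0.87 and passed as lower without the members that held T cell markers (403 and 199 UMIs). Klf4 was at 350.5 and 294 CPM, and Irf8, the factor of the cDC1 branch, at 27.3 and 47.0 CPM in members against 727 and 1176 CPM in the cDC1-like cells.

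Of 17 C-type lectin genes, 3 fell and 1 rose, with a median log2 ratio of −0.28. Mrc1, the mannose receptor, went from 118 to 53.9 CPM, Clec4e, the receptor Mincle, from 20.3 to 8.47 CPM and Cd209c from 38 to 22 UMIs, while Clec4n (Dectin-2) went from 18 to 47 UMIs. Clec12a, an inhibitory receptor, was at 71.1 and 131 CPM (0.88). Of 12 surface protein genes of cDC2, 2 fell: Adgre5 (CD97) went from 242 to 117 CPM and Cd36, a scavenger receptor for fatty acids and lipoproteins, from 29 to 9 UMIs. Sirpa, the CD172a antigen used to gate these cells, was at 64.1 and 70.9 CPM. Of 12 pattern recognition genes, Mb21d1 (the DNA sensor cGAS) and Syk fell and Tlr1 rose; Syk, the kinase downstream of Dectin receptors, went from 116 to 52.8 CPM. Without the members that held T cell markers, Tlr1 lay under the floor of 30 UMIs and the surface gene Cd72 passed 2-fold (27 and 55 UMIs). With free RNA subtracted, Clec4e and Cd36 were not called.

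Antigen presentation genes stayed under the threshold. None of 17 MHC class II genes passed 2-fold and 14 of them had a log2 ratio above 0, with a median of 0.13. Cd74, the invariant chain, was at 46904 and 52617 CPM and H2-Aa at 14684 and 16081 CPM. The genes nearest the threshold were H2-Oa, a subunit of the peptide-loading modulator DO, at 122 and 208 CPM (0.77) and H2-DMb2, a subunit of the peptide-loading factor DM, at 216 and 334 CPM (0.62). None of 13 MHC class I genes passed, with a median of 0.14, but without the members that held T cell markers Nlrc5, a regulator of class I genes, passed as lower (25 and 12 UMIs).

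Of 16 costimulation and maturation genes, Socs1 and Socs2, feedback inhibitors of cytokine signalling, rose with log2 ratios of 1.13 and 1.03, which were 0.29 and 0.08 without the members that held T cell markers. The costimulatory genes Cd86 (58.0 and 57.8 CPM) and Cd83 (945 and 995 CPM) had ratios near 1, and Tnfsf9, the 4-1BB ligand, was at 635 and 824 CPM.

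Of 29 interferon response genes, Ly6a (53 and 182 UMIs) and Ifit3 (11 and 34 UMIs) rose and none fell. Without the members that held T cell markers, Ly6a and Oasl2 (17 and 45 UMIs) passed 2-fold, and Ifit3 lay under the floor of 30 UMIs. Of 15 genes tied to the type 2 response, 5 fell (Retnla, Mrc1, Ccl17, Ccl24 and Irf4) and 1 rose (Socs2), with a median log2 ratio of −0.25. With free RNA subtracted, 4 of the 5 remained called, and Ccl24 and Socs2 were not. Of 15 genes related to monocytes or to the DC3 subset, 1 fell (Fn1). With free RNA subtracted, Fn1 was not called and Lyz1 was called as higher. Fn1 was far higher in the macrophage- and monocyte-gene clusters than in members, at 1701 and 496 CPM in cluster 3 and 1748 and 1183 CPM in cluster 8. Mrc1 was at 191 and 119 CPM in cluster 8 but at 13.9 and 1.95 CPM in the NK-like cells, well below the members.

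Several genes of lipid storage and sterol metabolism fell. Of 21 genes of fatty acid oxidation and PPAR targets, 3 fell and none rose, with a median log2 ratio of 0.00. With 10% of the free RNA level subtracted Plin2 remained called, and Cd36 and Lpl did not. Plin2, the coat protein of lipid droplets, went from 372 UMIs and 175 CPM (interval 158 to 194) to 170 UMIs and 65.5 CPM (56.0 to 76.1), a ratio of 0.374, and it was at 0 in 129 chow and 215 ketogenic members. In the cDC1-like cells Plin2 was at 123 and 118 CPM, and in the NK-like cells at 77.3 and 36.2 CPM. Lpl (lipoprotein lipase) went from 54 to 22 UMIs and Cd36 as given above.

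Of 12 cholesterol handling genes, 3 fell (Sqle, Insig1 and Apoe) and 1 rose (Abcg1). Apoe was at −0.79 on the log2 scale without the members that held T cell markers and was also not called with free RNA subtracted, unlike the other 3. Insig1, a sterol-sensing regulator of this pathway in the endoplasmic reticulum, went from 280 UMIs and 132 CPM to 152 UMIs and 58.5 CPM. Abcg1, a transporter that exports cholesterol, went the other way, from 27 UMIs and 12.7 CPM to 85 UMIs and 32.7 CPM. Sqle, which encodes squalene epoxidase of the synthesis pathway, went from 64 to 31 UMIs. Sqle and Insig1 were thus lower and this exporter higher on the ketogenic diet. Apoe was at 107 and 53.5 CPM in members and at 97.3 and 31.2 CPM in the NK-like cells, so that it lay near the background. Abcg1 was also higher in the other groups, at 8.20 and 26.4 CPM in the cDC1-like cells and 15.6 and 44.2 CPM in the NK-like cells.

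After these values were seen, a list of 21 genes of sterol metabolism, most of them synthesis enzymes, was drawn up, so its counts are a description. Of its 14 measured genes, 5 fell and none rose, 13 had a log2 ratio below 0, and the median was −0.89. Besides Insig1 and Sqle, the genes that fell were Hmgcs1, Pmvk and Cyp51, all enzymes of the synthesis pathway. Hmgcs1 went from 125 UMIs and 58.9 CPM to 68 UMIs and 26.2 CPM, Cyp51 from 70.2 to 30.8 CPM, and Pmvk from 45.7 to 21.6 CPM. Dhcr7 was the exception above 0, at 16 and 23 UMIs. Without the members that held T cell markers 4 of the genes fell, Pmvk no longer passed, and the median was −0.87.

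Summed over the list, the members held 1544 UMIs and 727 CPM on chow and 1068 UMIs and 411 CPM on the ketogenic diet, a log2 ratio of −0.82, and without the members holding T cell markers the sum was 751 and 426 CPM. The difference was spread over cells: the median was 3 UMIs per chow cell and 2 per ketogenic cell, 41 chow cells and 16 ketogenic cells held 10 or more, and the highest cell held 2.53% and 2.62% of the sum. In the cDC1-like cells the sum was 339 and 378 CPM (ratio interval 1.02 to 1.22), in the NK-like cells 356.5 and 348 CPM, in cluster 8 630 and 742 CPM and in cluster 9 196 and 260 CPM. It was lower on the ketogenic diet in the mature dendritic cells, at 798.5 and 575 CPM, and in the Siglech-positive cells of cluster 5, at 1594 and 797 CPM. Smaller decreases were seen in cluster 3, at 807 and 717 CPM (ratio interval 0.816 to 0.966), and in cluster 10, at 529 and 475 CPM (0.811 to 0.997). A lower ketogenic sum was thus not confined to cluster 5 and the mature dendritic cells, while the cDC1-like sum was slightly higher. The difference between these groups has no replicate and was not tested.

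Sterol genes are known targets of SREBP transcription factors, which bind sterol regulatory elements, and the promoters of 2 list members that fell are shown because both genes fell and they differ in the match searched here. The capitals mark a match to CACCCCAC, a core of such elements, searched on both strands (GTGGGGTG on the other) from 250 bases before to 50 after each RefSeq start on GRCm38.p6. The match occurred in 942 of 32851 such promoters (2.87%). Of the list, 16 genes had a promoter entry, and 2 of them held a match, Hmgcs1 and Acat2; Acat2 had too few UMIs in the members to be measured. The Hmgcs1 promoter (chr13:119690101-119690400, plus strand) held the match at 136 bases before the start, and the Insig1 promoter (chr5:28071162-28071461, plus strand) held none.
Hmgcs1: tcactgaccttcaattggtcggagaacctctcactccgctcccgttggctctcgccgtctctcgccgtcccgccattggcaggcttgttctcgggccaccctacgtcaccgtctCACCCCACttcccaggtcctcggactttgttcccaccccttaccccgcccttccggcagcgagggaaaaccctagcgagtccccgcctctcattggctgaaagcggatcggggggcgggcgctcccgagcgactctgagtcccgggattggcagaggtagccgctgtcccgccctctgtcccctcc
Insig1: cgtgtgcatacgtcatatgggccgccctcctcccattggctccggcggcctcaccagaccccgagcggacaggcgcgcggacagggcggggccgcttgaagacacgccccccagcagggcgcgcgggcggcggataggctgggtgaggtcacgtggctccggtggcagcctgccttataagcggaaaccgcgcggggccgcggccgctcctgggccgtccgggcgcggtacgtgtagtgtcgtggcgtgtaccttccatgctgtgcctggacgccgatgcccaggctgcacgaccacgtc
A match describes these letters only and does not show that a factor binds there.

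Of 11 ketone body genes, 6 were measured: Slc16a6, a carrier of ketone bodies, rose (9 and 25 UMIs), Hmgcs1 fell, and Oxct1 and Acat1, enzymes that break ketone bodies down, were at 39.6 and 59.3 CPM and at 47.6 and 69.7 CPM. Without the members that held T cell markers, Slc16a6 (log2 ratio 1.12) and the glycolysis-list gene Bnip3 (1.12) lay under the floor of 30 UMIs and were not called. Of 18 glycolysis genes 1 rose (Bnip3, 11 and 31 UMIs), with a median of 0.26; Pkm was at 175 and 291 CPM and Gapdh at 513 and 692 CPM. Both were also higher in the cDC1-like cells, Pkm at 151 and 262 CPM and Gapdh at 471 and 652 CPM. Of 11 cell cycle genes 1 rose (Ccnb2, 12 and 41 UMIs), and without the members that held T cell markers Top2a passed as lower (21 and 9 UMIs). None of 20 oxidative phosphorylation genes and none of 18 S100 and actin-binding genes passed 2-fold. Crip1, a LIM-domain protein gene of the latter list, was at 13605 and 8369 CPM (−0.70) in members and at 11640 and 7973 CPM in the cDC1-like cells.

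**Figure D3:**
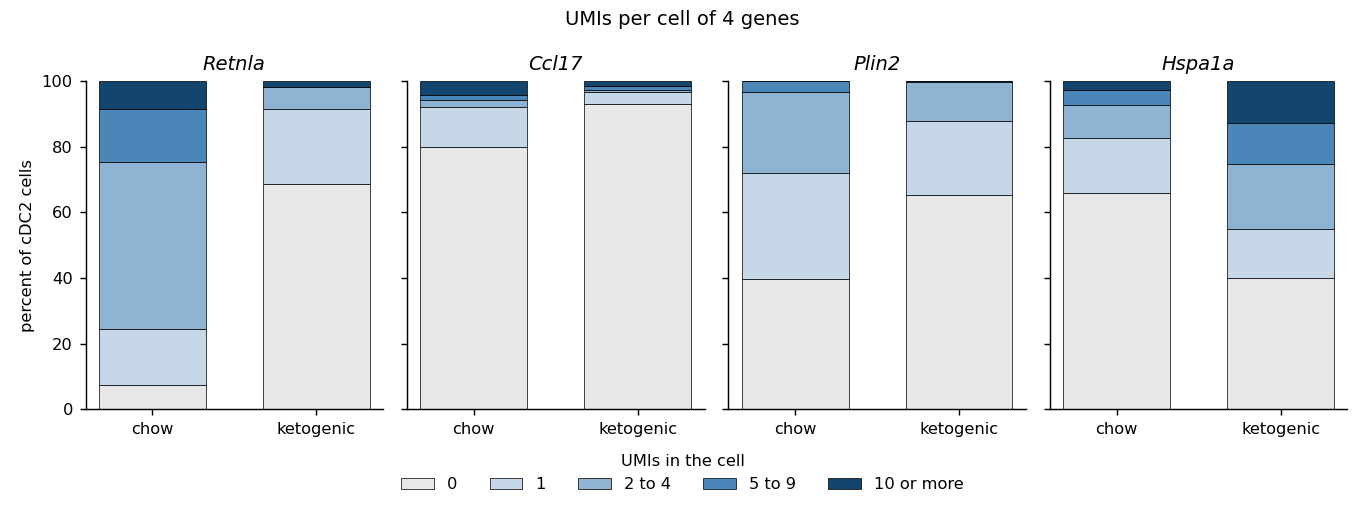
UMIs per cDC2 cell for Retnla, Ccl17, Plin2 and Hspa1a, as stacked bars of the percent of cells in each class of UMI count for each diet (1 library each). Cells with no UMI of Retnla number 24 on chow and 226 on the ketogenic diet, whereas Ccl17 is at 0 in 260 and 307 cells.

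The members were split further by clustering them alone, which gave 6 subgroups named here by number and leading genes. Subgroup 1 (220 cells) led with Mir155hg, Nlrp3 and Arl5c and also with Ccr7, the receptor that guides dendritic cells to lymph nodes. Subgroup 2 (180 cells) led with Retnla, Ccl17 and Egr1, and subgroup 3 (114 cells) with AA467197, the interferon-response genes Isg15 and Oasl2, and Plac8. Subgroup 4 (79 cells) led with the T cell receptor genes Trbc2 and Trbc1 and with Cd3g; it had a median of 10217 UMIs per cell, and 51 of its cells held 2 or more T cell marker UMIs. Csf2 and Nkg7 were also among its leading genes, and markers of NK cells (Ncr1, Klrb1c and Gzma) and of ILC2 (Gata3, Il1rl1, Rora and Il7r) were raised in it. Subgroup 5 (48 cells) led with Ly6d, of which 97.3% of the UMIs were in 1 cell, and with Cd7 and Plac8 and included Bst2 and Runx2, and subgroup 6 (14 cells) with the cell cycle gene Ccnb2. Subgroups 1 to 6 held 85, 131, 61, 21, 23 and 4 chow cells and 135, 49, 53, 58, 25 and 10 ketogenic cells. Of these, subgroup 1 was the one in which none of the 10 leading genes passed 2-fold between the diets, and it was 26.2% of members (21.5% to 31.3%) on chow and 40.9% (35.6% to 46.4%) on the ketogenic diet. Its share is tied to that of subgroup 2, whose leading genes differ between the diets, and no size is compared for the other subgroups.

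The markers differed among subgroups. Cd209a was at 1041, 1483, 1058, 936, 780 and 973 CPM in subgroups 1 to 6. Mgl2 ran from 1091 CPM in subgroup 2 to 28.7 CPM in subgroup 5, where Cd209d was at 1075 CPM. The members were clustered on these genes too, so the levels describe the subgroups and test nothing. Subgroup 5 also held raised Irf8, Tcf4 and Bst2, genes shared with plasmacytoid dendritic cells, while its cells lay under the Siglech limit, and it is left without a cell type name.

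Within subgroups the diet values differed by gene. Ccl17 went from 1038 to 243 CPM in subgroup 2 and from 1036 to 2.71 CPM in subgroup 3, but from 23.1 to 103 CPM in subgroup 1 and from 120 to 186.5 CPM in subgroup 4, so its lower total was not seen in each subgroup. In subgroup 2, 34.8% of the Ccl17 UMIs of both diets were in 1 cell. Retnla went from 471 to 76.4 CPM in subgroup 1, from 1651 to 725 CPM in subgroup 2 and from 483 to 29.8 CPM in subgroup 3. Plin2 went from 133 to 51.9 CPM, from 177 to 69.5 CPM and from 259 to 92.2 CPM in the same subgroups. Hspa1a went from 130 to 557 CPM, from 228 to 1155 CPM and from 237.5 to 474 CPM. The sterol sum went from 600.4 to 401 CPM in subgroup 1, from 685 to 366 CPM in subgroup 2, from 1147 to 583 CPM in subgroup 3 and from 803 to 401 CPM in subgroup 5. In subgroup 4, which held the T cell genes, it went from 398.5 to 366 CPM, with a ratio interval of 0.6996 to 1.22.

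**Figure D4:**
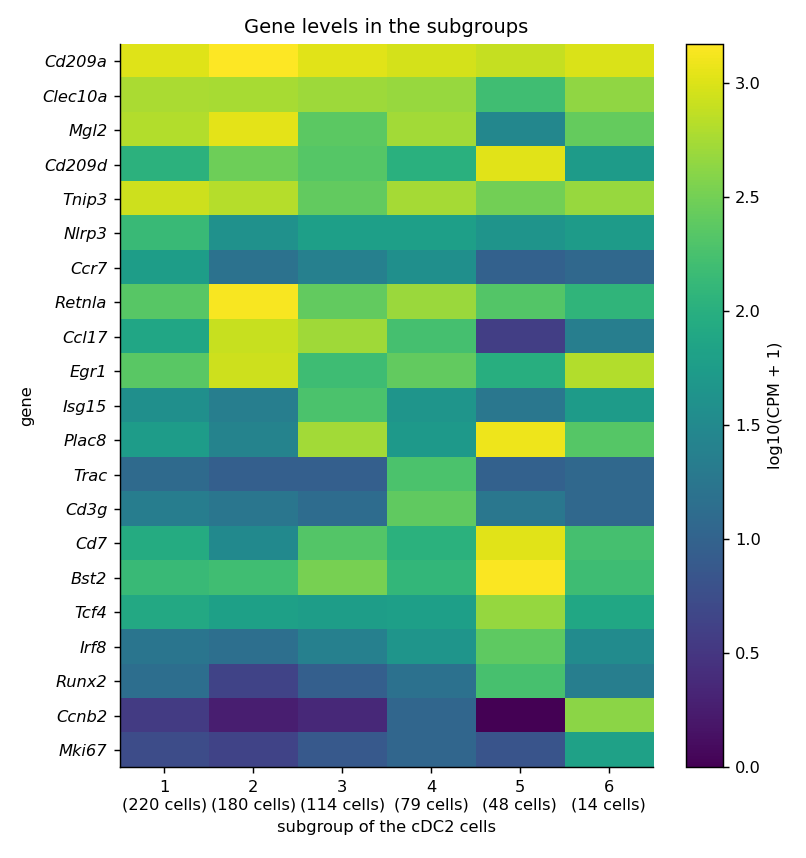
Levels of the 5 markers and of leading genes in the 6 subgroups of the cDC2 cells, both libraries together, as log10(CPM + 1) on a colour scale with subgroups as columns. Cd209a is high in each subgroup, at 780 to 1483 CPM, while Mgl2 is at 28.7 CPM in subgroup 5.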

How the data were processed

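Raw UMI counts per gene and cell were deposited by the authors for each library, together with a table of their clusters; t-SNE coordinates, a score with no unit in the same deposited table, were not used. Cell Ranger, Seurat and the mm10 build are named in the submitters' processing notes without versions; aligner settings and filters on cells are not given in the sources used here. Each of the 10017 clustered cells held at most 5% mitochondrial UMIs, and 87 chow and 55 ketogenic cells were outside the cluster table.

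UMIs were summed over the members of each library with Python 3.11.15, numpy 2.4.6, scipy 1.17.1, pandas 2.3.3 and scanpy 1.11.5, and levels are given as CPM with exact Poisson intervals, shares with Clopper-Pearson intervals and ratios with exact conditional intervals, all at 95%. The 2 libraries allow no test between diets, so no count model was fitted; the script was tested on simulated data. Shares of cells with a UMI were compared after thinning each cell to 2000 UMIs. Subgroups came from Leiden clustering (leidenalg 0.10.2, 1000 variable genes, 20 principal components, 15 neighbours, resolution 0.5). No doublet caller was run; instead, members with 2 or more UMIs of T cell markers, or with markers of several other cell types, were left out as alternatives. Scaling by TMM factors (edgeR 4.0.16 in R 4.3.3) was another alternative. Genes with near-identical copies, such as Hspa1a and Hspa1b, H2-DMb1 and H2-DMb2, or the Cd209 genes, may share reads, and antisense transcripts may share reads with the opposite strand.

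Genes were named by this rule: with 100 UMIs or more, the 12 largest and the 12 smallest diet ratios, apart from markers, immunoglobulins, mitochondrial genes and T cell receptor segments; the 5 markers; and from each list those past 2-fold plus up to 4 with the most UMIs. Other genes named were chosen after their values were seen, as were the sterol list, the removal of members with T cell markers and the removal of the highest cell. The members and lists were chosen with earlier results of these data known. Coordinates are from GENCODE M21 (GRCm38), which held 28339 of the 28692 gene IDs (98.8%); promoters are from RefSeq. Some genes are not reported here and were left out of the lists and of the named genes; counts over all genes include them.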

Additional observations from a re-analysis of the deposited data

Results flagged for a closer look

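The log2 ratio of Cd79a, a B cell receptor gene, was 2.06 in the cDC2 cells (9 UMIs on chow and 48 on the ketogenic diet, 30 of them in 1 cell) and −1.49 in the cDC1-like cells (30 and 15 UMIs), so the direction was opposite in these cell groups. The log2 ratio of Ly6d was 3.47 in the cDC2 cells (9 and 128 UMIs, 109 of them in 1 cell) and −1.18 in the cDC1-like cells (40 and 25 UMIs). Neither difference between the cell groups was tested, since each diet has 1 library.

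Among the 142 cells that the deposited clustering did not place, 5 held UMIs of at least 3 of the 5 cDC2 markers, against 80.8% of the members and 1 of 1786 NK-like cells. The same condition was met by 147 of 362 chow and 10 of 47 ketogenic cells of cluster 8, and by 103 of 859 and 8 of 145 cells of cluster 3, so it does not mark cDC2 cells alone. Of these 5 cells, 4 came from the chow library and 1 from the ketogenic library, and their mitochondrial share ran from 5.31% to 8.25%.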

How the results depend on the processing

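No paired analysis was possible because each diet has 1 library, and no replicate could be left out. Leaving out members with markers of other lymphoid cells or cDC1 kept 37 chow and 19 ketogenic cells. No gene with 100 UMIs there was 2-fold higher (0 of 365), while 13 were lower. The sign of the log2 ratio changed for Bcl2 (−0.46), Gimap5 (−0.46), Lat (−1.19), Pilrb1 (0.24), Cd209d (0.24) and Clec10a (−0.48). Hspa1a was at 0.52, Ccl7 at −1.68, Ccl17 at −4.23 and Retnla at −3.85, and 8 of 29 named values stayed close. Different genes shared 1 value there, such as Cd28, Cd3e and Cd3g at 1.13. This occurs when few UMIs remain and the 0.5 added to each count sets the ratio. Signs and sizes in this set are therefore uncertain, and no direction is concluded from them. Lat was also below 0 (−0.077) without members with T cell markers, where the number of higher genes was 12. Of 6009 genes with at least 50 UMIs 117 were higher and 89 lower, and of 2450 with at least 200 UMIs 19 and 24; the cause was not tested. Of the listed genes, 35 of 367 passed 2-fold with 30 UMIs, 51 of 417 with 10 UMIs and 19 of 284 with 100 UMIs. Over all genes, 2.93% were higher and 1.94% lower with 30 UMIs, and 1.14% and 0.940% with 100 UMIs. The share over all genes is not given for 10 UMIs. The ratio of cDC2 shares was 0.680 among cells with at least 3000 UMIs, 0.612 outside clusters 3 and 8, and 0.399 by marker UMIs alone. At resolution 0.3 the members fell into 3 subgroups instead of 6, and at resolution 0.8 into 8. Scaling by TMM factors (0.987 and 1.01) kept all 29 named values close and gave 43 higher and 40 lower genes. Higher genes were 54.8% of the calls, 27.3% without members with T cell markers and 44.2% with at least 200 UMIs. With 10% of the free RNA level subtracted they were 46.4%, with 32 higher and 37 lower of 3681 genes. Genes under 30 UMIs were too sparse to measure here.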
